A study of Mus musculus with 12 samples.

Results

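Knockdown of ISG20 at 20% oxygen was measured by RNA sequencing in EMT6 cells, a mouse breast cancer line. The comparison set 3 libraries of ISG20 knockdown cells (shISG20) against 3 libraries of control cells (shNTC), which is 6 of the 12 libraries of the study. The other 6 libraries were shISG20 and shNTC cells at 1% O2. Both kinds of cells are subclones named for a short hairpin and were kept at their oxygen level for 48 hours, although 484 hours is written for shISG20 replicate 3 at 20% O2. The labels give the genotype of the shNTC cells as wild type. They do not give the number of subclones in a group, so differences that come with the choice of subclone cannot be told apart from those of the knockdown. Each group is also named for its own hairpin, so differences that come with the hairpin itself cannot be told apart either. The labels call the libraries biological replicates without naming separate cultures, so the p-values reflect only how these samples vary, which may be partly technical variation.

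ISG20 encodes an exonuclease that interferon induces and that degrades single-stranded RNA, and it is best known for its activity against RNA viruses. The question of the comparison, as the design text states it, was how expression differs between knockdown and control cells.

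Levels were deposited as TPM, a read count scaled by gene length and by the total of the library, over 60683 rows, of which 13545 reached 1 TPM in at least 3 of these 6 libraries and were tested, and 41661 were at 0 in all 6. The rows are human genes although the cells are mouse, so a level depends on how well mouse reads aligned to the human gene. Levels are therefore compared between cells and never between genes, and a gene listed at 0 may be one whose reads did not align. The reads behind the TPM values numbered 3251090, 5201799 and 3297541 in the shISG20 libraries, against 3668682, 3745276 and 3413952 in the shNTC libraries. On log2(TPM + 1), the first principal component of the 6 libraries held 31.8% of the variance and separated shISG20 from shNTC, and the second held 19.1% and had shISG20 replicates 1 and 3 at its ends. Among 10 markers of mammary carcinoma cells, vimentin (VIM) was at 1827 ± 107 TPM in shISG20 cells and 1979 ± 29.7 TPM in shNTC cells, and keratin 8 (KRT8) at 37.2 ± 2.69 TPM in shISG20 cells and 35.4 ± 3.99 TPM in shNTC cells (SD, n = 3 each). Of these 10 markers keratin 19 (KRT19) was called higher in shISG20 cells (6.39 TPM in shISG20 against 3.31 TPM in shNTC, log2 fold change 0.74, limma adjusted p = 0.0201), a call that ended without shNTC replicate 1 or 3 (0.73 and 0.72), with voom and in a fit of the 6 libraries alone, and the mesenchymal markers S100A4 and TWIST1 were called lower. The epithelial markers EPCAM and CDH1 were at 1 read in each group and at 0 reads. Of 19 leucocyte markers 17 had no read in the 6 libraries, as did 7 of 11 endothelial markers, and no member of either list reached the level for testing.

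ISG20 (ENSG00000172183) was lower in every knockdown library. It stood at 0.215, 0.135 and 0.323 TPM in the shISG20 libraries, against 2.03, 2.65 and 2.70 TPM in the shNTC libraries, which rests on 7 reads in shISG20 and 75 reads in shNTC cells. All 3 shISG20 libraries lay below all 3 shNTC libraries. The log2 fold change of TPM + 1, shISG20 over shNTC, was -1.50 (SE 0.155, limma adjusted p = 0.000184), and it stayed between -1.59 and -1.44 when any 1 library was left out.

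In the fit across all rows, 751 rows were higher and 962 lower in shISG20 cells at a limma adjusted p under 0.05, which is 5.54% and 7.1% of the rows tested and 12.6% together. The 3 shISG20 libraries lay above all shNTC libraries in 16.9% of rows and below all of them in 15.7%. Genes named for the highest or lowest fold changes, smallest p-values or largest TPM differences had to show no overlap. Their separation was therefore set by the choice and is no added result. The median log2 fold change over all rows was 0.02. Among the 8318 tested rows that match a mouse gene, 562 were higher and 757 lower, 15.9% together, against 7.62% of pseudogene rows. The gene lists hold named genes, so shares over all rows are a low baseline for them. In rows that match a mouse gene, 24 higher and 90 lower ones differed by a log2 of 1 or more, so that differences of this size were mostly decreases there. Over all rows the counts were 65 higher and 126 lower, and at a log2 of 2 or more 14 higher and 14 lower. Fewer libraries gave fewer calls: 1125 to 1193 in all with 1 library left out, and for higher rows 489, 452 and 459 without shISG20 replicate 1, 2 and 3 and 499 without shNTC replicate 1. A count model on the reads behind the TPM values (limma's voom) called 1276 rows higher and 1256 lower.

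The genes that fell most included a chaperone, several collagens and a set of signalling genes. GDPD2, a membrane-bound glycerophosphodiesterase, stood at 3.22, 2.39 and 3.80 TPM in the shISG20 libraries, against 23.1, 30.5 and 28.0 TPM in the shNTC libraries. That put every shISG20 library at a small fraction of every shNTC library (log2 fold change -2.78, SE 0.166, limma adjusted p = 6.02e-06). CAVIN1, a coat protein of caveolae, stood at 95.9, 107 and 109.6 TPM in the shISG20 libraries, against 282, 292 and 278 TPM in the shNTC libraries, with the libraries of each group close together (log2 fold change -1.44, SE 0.0728, limma adjusted p = 2.43e-06). The calcium sensor CIB2 (5.86 TPM in shISG20 against 17.5 TPM in shNTC), the synaptotagmin SYT13 (2.19 TPM in shISG20 against 7.50 TPM in shNTC), the F-box protein FBXO2 (1.64 TPM in shISG20 against 6.57 TPM in shNTC) and the scaffold SLC9A3R1 (3.26 TPM in shISG20 against 9.77 TPM in shNTC) also fell, by 1.41 to 1.56 on the log2 scale. MIRLET7I, a let-7 gene, was listed at 0 in the shISG20 libraries against 9 reads over the shNTC libraries, too few for a fold. Others that fell with small p-values were CLIC1, a chloride channel protein (282 TPM in shISG20 against 435 TPM in shNTC), BZW1, a translation regulator (53.7 TPM in shISG20 against 109 TPM in shNTC), MAPKAPK2, a kinase downstream of p38 (36.4 TPM in shISG20 against 75.2 TPM in shNTC), and YPEL3, a growth suppressor (61.6 TPM in shISG20 against 119.6 TPM in shNTC), with log2 fold changes of -0.62, -1.01, -1.02 and -0.94.

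The genes that rose most had varied functions. They included NR1D1 and SDF2L1, both treated with their gene groups, the glutathione transferase GSTA1 (9.70 TPM in shISG20 against 2.38 TPM in shNTC, 1.71), the transmembrane receptor DCBLD2 (11.9 TPM in shISG20 against 4.41 TPM in shNTC, 1.24), the thioesterase ACOT13 (6.01 TPM in shISG20 against 2.17 TPM in shNTC, 1.15) and NABP2, a single-stranded DNA binding protein (28.0 TPM in shISG20 against 13.4 TPM in shNTC, 1.02). GSTA1 can share reads with GSTA2, which moved the same way (4.09 TPM in shISG20 against 0.559 TPM in shNTC, 1.73), so the pair cannot be kept apart. IGF2BP2, an RNA-binding protein that stabilises messages, had the smallest p among named genes that rose apart from NR1D1. Its libraries read 78.7, 79.4 and 82.1 TPM in the shISG20 libraries, against 39.8, 43.4 and 40.8 TPM in the shNTC libraries, with no overlap (log2 fold change 0.94, SE 0.0520, limma adjusted p = 4.21e-06). MT-RNR1, the small ribosomal RNA of mitochondria, was at 174 TPM in shISG20 against 79.1 TPM in shNTC (1.14). Among the genes that rose most, few reads stood behind the histone H2AC8, with 17 reads in shISG20 against 2 reads in shNTC cells, and behind PHLDA2, with 27 reads in shISG20 against 5 reads in shNTC cells. The PHLDA2 call ended without any 1 library other than shISG20 replicate 3 (log2 of 1.04 to 1.83 over the leave-outs), and the H2AC8 call with a pseudocount of 0.1.

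**Figure D1:**
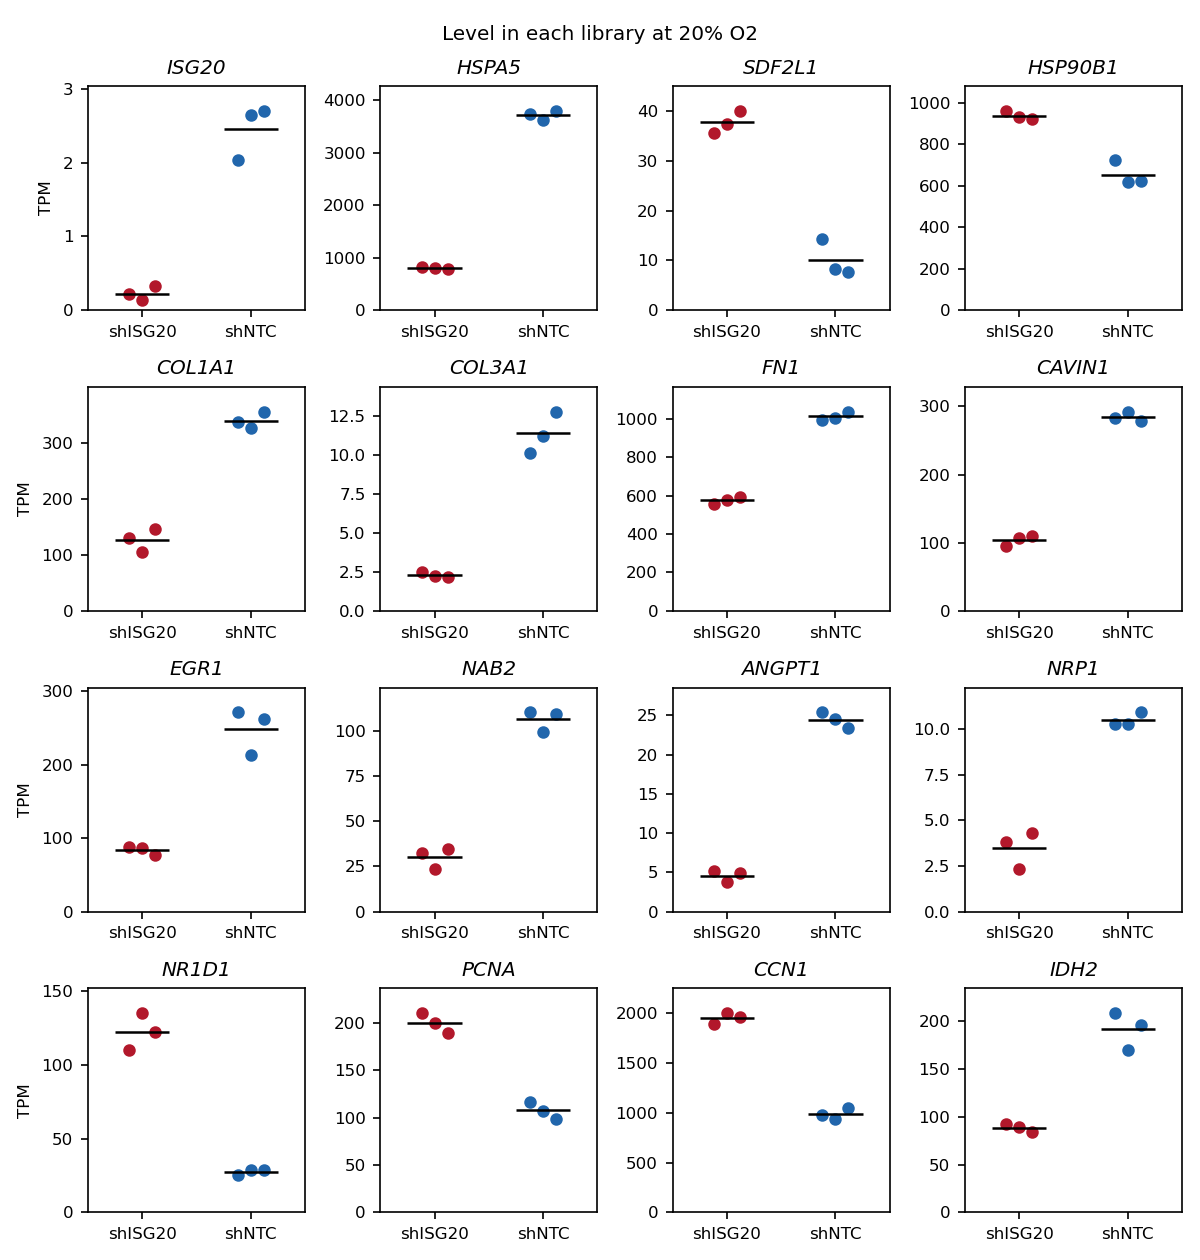
TPM of 16 genes in each of the 6 libraries at 20% O2, with shISG20 left of shNTC in every panel, points for libraries and bars for the mean of 3. In all 16 genes the 3 shISG20 libraries lie apart from the 3 shNTC libraries, for ISG20 at 0.135 to 0.323 TPM in shISG20 against 2.03 to 2.70 TPM in shNTC. Many of these genes were named by a rule that required such separation, and over all rows 16.9% lay above and 15.7% below.

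Proteins that enter the secretory pathway fold in the endoplasmic reticulum (ER), where HSPA5 (BiP) binds unfolded chains together with cochaperones, disulphide isomerases and glycoprotein chaperones. When unfolded proteins build up, the unfolded protein response raises these genes as a group through ATF6 and XBP1. In these cells HSPA5 fell while other members rose. HSPA5 stood at 817, 800.3 and 778 TPM in the shISG20 libraries, against 3729, 3616 and 3794 TPM in the shNTC libraries. The libraries of each group nearly coincided, and the shISG20 libraries held less than any shNTC library by a wide margin (log2 fold change -2.21, SE 0.0589, limma adjusted p = 1.43e-08). Its processed copy in the table, HSPA5P1, shares reads with it and was lower too, at 155 TPM in shISG20 against 739 TPM in shNTC (-2.25). Of 36 ER folding genes tested, 14 rose and HSPA5 alone fell, against 5.54% and 7.1% of all rows. The median of the 36 log2 fold changes was 0.24, and 22 members had every shISG20 library above every shNTC library, against 16.9% of all rows.

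SDF2L1, which partners the HSP40 cochaperones of the ER, rose most among the 36. It stood at 35.7, 37.5 and 40.1 TPM in the shISG20 libraries, against 14.4, 8.31 and 7.74 TPM in the shNTC libraries, with shNTC replicate 1 the highest of the controls and still below every knockdown library (log2 fold change 1.84, SE 0.180, limma adjusted p = 0.000122). DNAJB9, a cochaperone of HSPA5, was at 47.7 TPM in shISG20 against 23.96 TPM in shNTC (0.96), and MANF, a secreted ER stress protein, at 384 TPM in shISG20 against 242 TPM in shNTC (0.66). HSP90B1, the HSP90 of the ER, stood at 960.1, 930.2 and 919 TPM in the shISG20 libraries, against 722, 618 and 621 TPM in the shNTC libraries (log2 fold change 0.52, SE 0.0602, limma adjusted p = 0.00035). The disulphide isomerases PDIA3, PDIA6 and TXNDC11 rose by 0.35, 0.38 and 0.54, HYOU1, a nucleotide exchange factor of HSPA5, by 0.45, and ERP29, an ER folding factor, by 0.38. The remaining called members were smaller or closer to the threshold: SELENOS (0.67), DERL1 (0.24) and DERL2 (0.31) of ER-associated degradation, the oxidase ERO1A (0.18) and the transcription factor XBP1 (0.32, adjusted p = 0.0476 by limma). The SELENOS call ended without shISG20 replicate 1 or shNTC replicate 3, the DERL1 call without any shISG20 replicate or shNTC replicate 2, and those of DERL2, ERO1A and XBP1 without most or all of the single libraries (0.14 to 0.73 over these 5 genes). The count of members that rose was 9 without shISG20 replicate 1. The lectin chaperones CALR (792 TPM in shISG20 against 712 TPM in shNTC) and CANX (357 TPM in shISG20 against 335 TPM in shNTC), PDIA4 and the sensors ATF6, EIF2AK3 and ERN1 were not called.

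**Figure D2:**
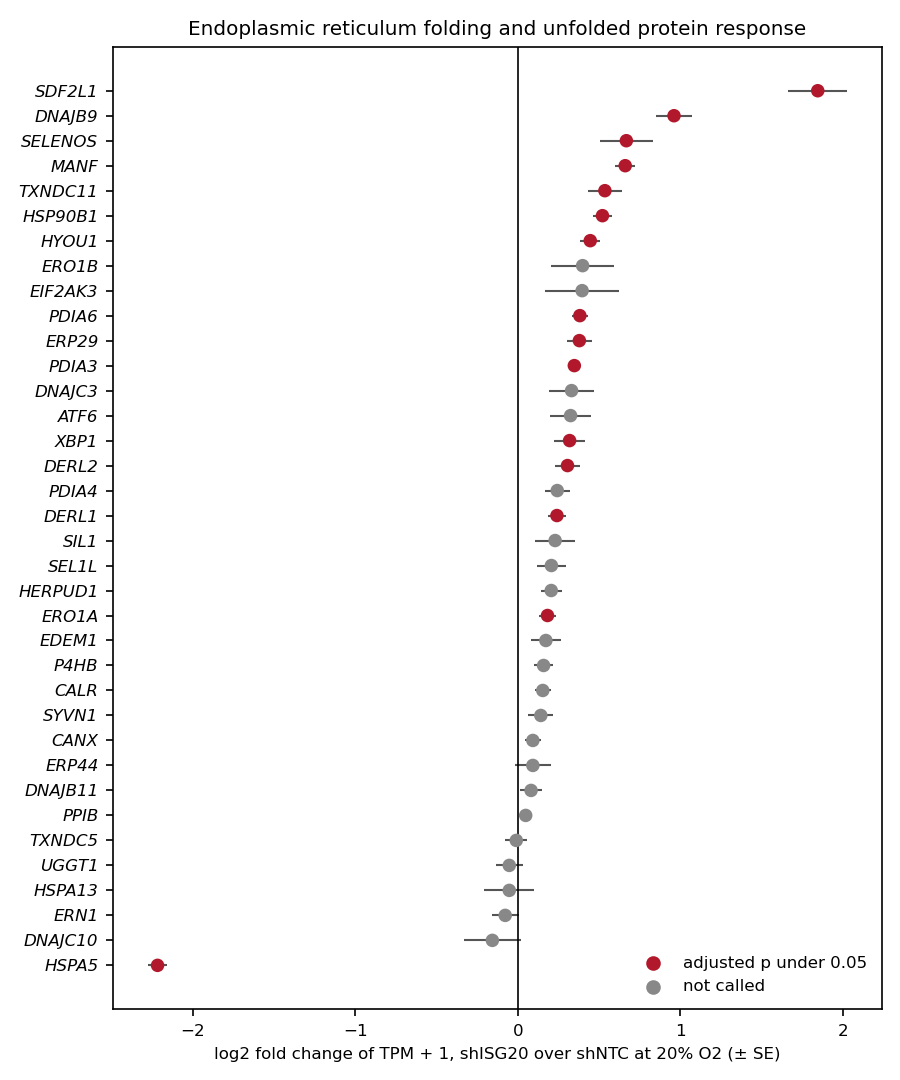
Log2 fold change of TPM + 1, shISG20 over shNTC at 20% O2, with limma's standard error, for the 36 ER folding genes tested. HSPA5 lies at -2.21 and the other called members lie between 0.18 and 1.84.

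The promoters of HSPA5 and of 2 members that rose are shown because they hold the same kind of element while their messages moved in opposite directions. The ER stress element was searched as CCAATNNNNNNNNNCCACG on both strands, from 250 bases before to 50 after each RefSeq start in GRCm38.p6. It was present in the windows of 37 of 27025 genes (0.137%). Of the 36 tested ER folding genes 29 had a window, and 8 of these held the element: HSP90B1 and PDIA6 rose, HSPA5 fell, and CALR, CANX, DNAJC3, ERO1B and SYVN1 were not called. A match describes letters in a window and no binding was measured. In these sequences, each read 5′ to 3′ on the strand of the gene, capitals mark the ends of each match. Hspa5 lies at chr2:34771840-34772139 (plus strand) with 1 match, Hsp90b1 at chr10:86705395-86705694 (minus strand) with 2 matches, of which the second is on the opposite strand, and Pdia6 at chr12:17266339-17266638 (plus strand) with 1 match.
Hspa5: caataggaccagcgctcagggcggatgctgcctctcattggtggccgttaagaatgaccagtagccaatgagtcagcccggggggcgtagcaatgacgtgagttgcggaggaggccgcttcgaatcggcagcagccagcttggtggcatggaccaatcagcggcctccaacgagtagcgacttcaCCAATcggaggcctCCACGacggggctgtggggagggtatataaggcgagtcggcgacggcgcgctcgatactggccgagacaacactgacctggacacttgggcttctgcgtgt
Hsp90b1: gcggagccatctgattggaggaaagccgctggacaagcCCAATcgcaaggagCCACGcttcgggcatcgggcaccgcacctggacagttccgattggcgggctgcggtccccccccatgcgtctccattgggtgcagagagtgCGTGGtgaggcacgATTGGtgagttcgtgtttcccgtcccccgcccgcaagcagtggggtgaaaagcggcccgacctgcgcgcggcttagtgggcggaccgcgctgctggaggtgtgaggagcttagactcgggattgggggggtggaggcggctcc
Pdia6: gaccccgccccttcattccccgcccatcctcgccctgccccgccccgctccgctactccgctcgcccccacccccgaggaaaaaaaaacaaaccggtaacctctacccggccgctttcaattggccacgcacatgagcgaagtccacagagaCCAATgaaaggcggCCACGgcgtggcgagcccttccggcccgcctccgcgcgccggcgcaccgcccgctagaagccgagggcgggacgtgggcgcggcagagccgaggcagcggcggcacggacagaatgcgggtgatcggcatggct

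Cytosolic and mitochondrial heat shock proteins showed no common direction, with 4 of 24 higher and 2 lower (median 0.07), and 1 lower without shISG20 replicate 2 or shNTC replicate 1. HSPA9, the mitochondrial HSP70, was at 774 TPM in shISG20 against 642 TPM in shNTC (0.27) and the small heat shock protein CRYAB at 97.5 TPM in shISG20 against 64.2 TPM in shNTC (0.59). HSPA8, the constitutive cytosolic HSP70, fell (451 TPM in shISG20 against 564 TPM in shNTC, -0.32). In the integrated stress response, which ATF4 directs when translation initiation is restrained, 2 of 23 genes rose and 1 fell. Of all rows 5.54% rose and 7.1% fell, and 2 of the 23 genes fell without shNTC replicate 2. ATF4 itself rose slightly (700.2 TPM in shISG20 against 589 TPM in shNTC, 0.25), CHAC1, a glutathione-degrading target, fell (171 TPM in shISG20 against 223 TPM in shNTC, -0.38), and DDIT3 (CHOP) was at 618 TPM in shISG20 against 632 TPM in shNTC and was not called.

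Fibrillar and associated collagens form the bulk of the extracellular matrix, and their chains are folded in the ER, hydroxylated, and crosslinked outside the cell. Collagen chains fell in shISG20 cells, 9 of 10 tested and with none higher, against 7.1% of all rows lower. Their median log2 fold change was -1.37, and 7 to 10 fell under every alternative tried. COL1A1, a chain of type I collagen, stood at 130.0, 106 and 146 TPM in the shISG20 libraries, against 337, 326 and 355 TPM in the shNTC libraries, so that the highest knockdown library was far below the lowest control library (log2 fold change -1.42, SE 0.123, limma adjusted p = 6.21e-05). COL1A2, its partner chain, was at 650.1 TPM in shISG20 against 849 TPM in shNTC (-0.39, a call that ended without shISG20 replicate 2 (-0.35) or without shNTC replicate 1 or 3 (-0.36 and -0.37)). COL3A1, of type III collagen, stood at 2.51, 2.22 and 2.17 TPM in the shISG20 libraries, against 10.2, 11.2 and 12.8 TPM in the shNTC libraries (log2 fold change -1.90, SE 0.150, limma adjusted p = 3.39e-05). The 3 knockdown libraries of COL3A1 nearly coincided and lay far below the controls. Both type VI chains were low in shISG20 cells, COL6A2 at 2.73 TPM in shISG20 against 14.1 TPM in shNTC and COL6A1 at 1.32 TPM in shISG20 against 5.75 TPM in shNTC (-2.05 and -1.54). The fibril-associated chains COL12A1 (52.7 TPM in shISG20 against 124 TPM in shNTC) and COL16A1 (12.1 TPM in shISG20 against 31.5 TPM in shNTC) and COL7A1 of anchoring fibrils (1.72 TPM in shISG20 against 6.69 TPM in shNTC) fell by 1.22 to 1.50. The remaining chain that fell lost its call without shISG20 replicate 1 or 2 (-0.30 and -0.34) or shNTC replicate 2 or 3 (-0.35 and -0.31). The tenth chain, COL8A1, was at 9.72 TPM in shISG20 against 12.3 TPM in shNTC and was not called.

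Glycoproteins of the matrix fell more often than they rose, 13 against 2 of 23 tested (median -0.51), where 7.1% and 5.54% of all rows did so. Without shISG20 replicate 2 or shNTC replicate 1, 8 fell. FN1, fibronectin, stood at 556, 576 and 594 TPM in the shISG20 libraries, against 995, 1006 and 1036 TPM in the shNTC libraries, with no overlap (log2 fold change -0.81, SE 0.0781, limma adjusted p = 0.000109). EFEMP2, needed for elastic fibres, LTBP4, which holds latent TGF-beta in the matrix, and the proteoglycan VCAN fell by 0.88, 0.89 and 0.99 on the log2 scale. FBLN2, SDC3, SDC4 and LTBP3 fell by 0.52 to 0.81. The 2 members that rose were the matricellular proteins CCN1 and CCN2, which bind integrins. CCN1 stood at 1895, 2001 and 1967 TPM in the shISG20 libraries, against 983, 936 and 1050.0 TPM in the shNTC libraries, with every knockdown library far above every control library (log2 fold change 0.98, SE 0.0644, limma adjusted p = 1.08e-05). CCN2 was at 263 TPM in shISG20 against 156 TPM in shNTC (0.75).

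Enzymes that modify collagen fell in 8 of 23 cases and rose in 2 (median -0.24), and 4 or 5 fell without shISG20 replicate 2 or any 1 of the shNTC replicates, and 1 rose without shISG20 replicate 2 or 3 or shNTC replicate 2 or 3. PCOLCE, which aids removal of the procollagen end (45.9 TPM in shISG20 against 74.2 TPM in shNTC), the lysyl hydroxylase PLOD2 (13.9 TPM in shISG20 against 19.9 TPM in shNTC), the prolyl hydroxylase subunit P4HA1 (54.6 TPM in shISG20 against 70.3 TPM in shNTC) and the galactosyltransferase COLGALT1 (35.8 TPM in shISG20 against 51.4 TPM in shNTC) fell by 0.36 to 0.70. SERPINH1 (HSP47), the collagen chaperone of the ER, was at 372 TPM in shISG20 against 391 TPM in shNTC and was not called. Of 15 proteases and inhibitors 4 fell and 1 rose, against 7.1% and 5.54% of all rows. The aggrecanase ADAMTS4 fell to 2.21 TPM in shISG20 against 6.95 TPM in shNTC (-1.31), and the inhibitor TIMP2 to 69.3 TPM in shISG20 against 100.2 TPM in shNTC (-0.53). The gelatinase MMP2 was at 13.5 TPM in shISG20 against 26.7 TPM in shNTC (-0.94), a call that ended without shISG20 replicate 1 or 2 (-0.87 and -0.88) or shNTC replicate 1 (-0.91), and the membrane protease MMP14 was not called. In the basement membrane list the proteoglycans AGRN and HSPG2 and the laminin chain LAMB1 fell and the laminin chain LAMC1 rose (43.6 TPM in shISG20 against 27.8 TPM in shNTC, 0.63) among 9 tested, and the HSPG2 call ended without any 1 library other than shNTC replicate 1 (-0.49 to -0.46).

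**Figure D3:**
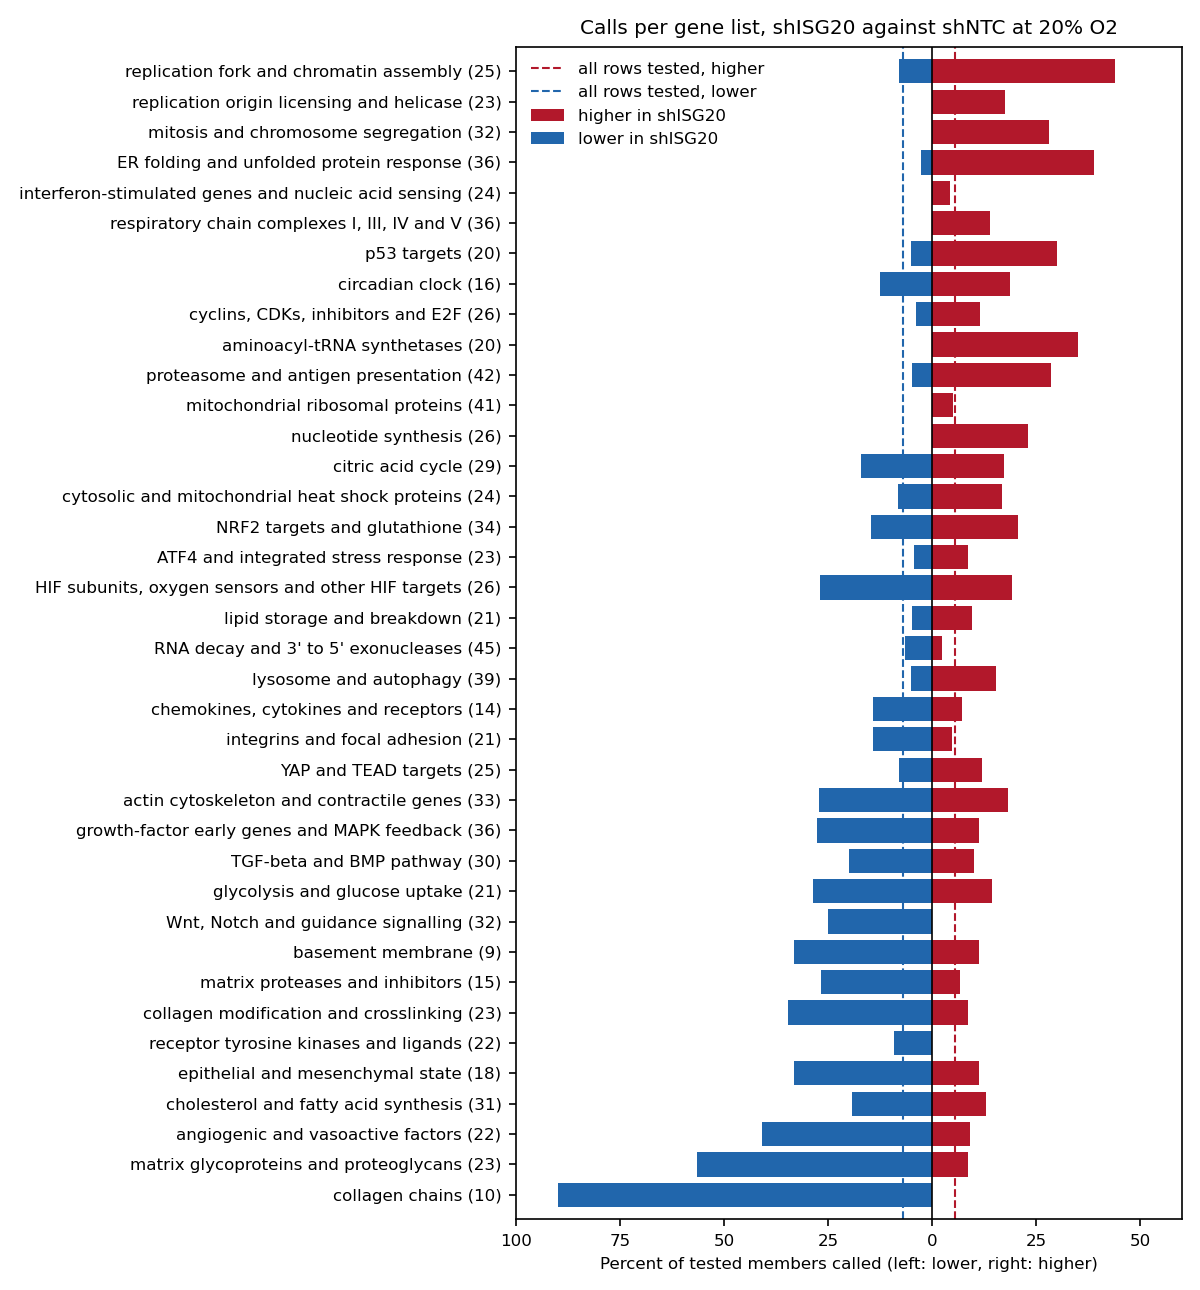
Share of the tested members of each of 38 gene lists called higher (right) or lower (left) in shISG20 than in shNTC cells at 20% O2, with the number tested in brackets, ordered by median log2 fold change. Dashed lines mark the 5.54% and 7.1% of all rows called higher and lower, and collagen chains (9 of 10 lower) and replication fork genes (11 of 25 higher) lie at the ends. Of rows that match a mouse gene 15.9% were called in either direction, against 12.6% of all rows.

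Genes of the actin cytoskeleton went both ways, with 6 of 33 higher and 9 lower. Filamin A (FLNA), which crosslinks actin, fell to 175 TPM in shISG20 against 312 TPM in shNTC (-0.83), ezrin (EZR), which ties actin to the membrane, to 24.3 TPM in shISG20 against 42.5 TPM in shNTC (-0.78) and the thymosin TMSB10 to 5450.2 TPM in shISG20 against 7268 TPM in shNTC (-0.42). The actin-severing proteins CFL2 (62.9 TPM in shISG20 against 32.3 TPM in shNTC, 0.94) and DSTN (149.8 TPM in shISG20 against 104 TPM in shNTC, 0.53) rose, as did the thymosin TMSB4X (1.04). The actins ACTB (1389.8 TPM in shISG20 against 1308 TPM in shNTC) and ACTG1 (781 TPM in shISG20 against 738 TPM in shNTC) were not called. Of 21 integrins and adhesion genes, ITGB7 rose (87.0 TPM in shISG20 against 50.2 TPM in shNTC, 0.78), and ITGA3 (25.7 TPM in shISG20 against 38.9 TPM in shNTC, -0.59), PXN (-0.35) and ITGB1 (-0.24) fell. Of all rows 5.54% rose and 7.1% fell. The ITGB1 call ended without any 1 of the 6 libraries, with values of -0.26 to -0.23.

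CCN1 and CCN2 are also targets of YAP, the coactivator that responds to tension and cell density. Of 25 YAP and TEAD targets 3 rose, CCN1, CCN2 and ANKRD1 (182 TPM in shISG20 against 111 TPM in shNTC, 0.72), while the receptor AXL (228 TPM in shISG20 against 369 TPM in shNTC, -0.69) and the factor TEAD2 (10.1 TPM in shISG20 against 17.7 TPM in shNTC, -0.75) fell. The median of the list was -0.05, and of all rows 5.54% rose and 7.1% fell.

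Genes of the epithelial and mesenchymal state gave 6 lower and 2 higher of 18 (median -0.26), against 7.1% and 5.54% of all rows. Without shNTC replicate 1 or 3, 1 was higher. The metastasis-associated calcium binder S100A4 stood at 104, 74.8 and 104 TPM in the shISG20 libraries, against 247, 218 and 223 TPM in the shNTC libraries, with shISG20 replicate 2 lowest and no overlap (log2 fold change -1.29, SE 0.129, limma adjusted p = 0.000143). The mesenchymal transcription factor TWIST1 was at 69.0 TPM in shISG20 against 115 TPM in shNTC (-0.72). Among cell junction genes, plakoglobin (JUP) fell (-0.60) and desmoplakin (DSP) rose (0.39). Of markers of fibroblasts and pericytes 3 of 11 were tested, COL3A1, ACTA2 and PDGFRB. Of the others 5 rows had no read, where a gene can have more than 1 row. ACTA2 was at 197 TPM in shISG20 against 149 TPM in shNTC and PDGFRB at 6.25 TPM in shISG20 against 7.60 TPM in shNTC, neither called.

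Growth factors switch on EGR1 and other early genes through MAP kinases and SRF, and the products then restrain the pathway. Of 36 such genes 10 fell and 4 rose (median -0.10), and 6 fell without shISG20 replicate 1 or 2 or shNTC replicate 1. EGR1 stood at 87.8, 87.2 and 76.8 TPM in the shISG20 libraries, against 271, 213 and 262 TPM in the shNTC libraries, with shNTC replicate 2 the lowest control and still far above the knockdown libraries (log2 fold change -1.55, SE 0.277, limma adjusted p = 0.00462). NAB2, an EGR1 target that represses EGR1, stood at 32.3, 23.6 and 34.5 TPM in the shISG20 libraries, against 110.0, 99.4 and 109 TPM in the shNTC libraries (log2 fold change -1.80, SE 0.164, limma adjusted p = 8.35e-05). In both genes the groups were far apart. JUNB, of the AP-1 family, fell to 357 TPM in shISG20 against 575 TPM in shNTC (-0.69), the ERK phosphatase DUSP6 to 24.99 TPM in shISG20 against 46.4 TPM in shNTC (-0.87) and the receptor signalling inhibitor SPRY2 to 89.0 TPM in shISG20 against 118 TPM in shNTC (-0.40). EGR2 and EGR3, of the same family as EGR1, fell by 1.21 and 1.05. The EGR3 call ended without shISG20 replicate 1 or 2 or shNTC replicate 1 or 3 (-0.85 without shISG20 replicate 2), and the EGR2 call with a pseudocount of 0.1. Members that rose were the phosphatases DUSP1 (203 TPM in shISG20 against 124 TPM in shNTC, 0.71) and DUSP4 (0.71), the factor JUN (264 TPM in shISG20 against 205 TPM in shNTC, 0.37) and SRF itself (298 TPM in shISG20 against 208 TPM in shNTC, 0.52). MYC (290.1 TPM in shISG20 against 259.9 TPM in shNTC) was not called. Among receptor tyrosine kinases and their ligands 2 of 22 fell, AXL and the collagen receptor DDR1 (9.15 TPM in shISG20 against 17.98 TPM in shNTC, -0.90), and none rose. Of all rows 7.1% fell and 5.54% rose.

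TGF-beta is an inducer of matrix genes, and 2 of its ligands fell. TGFB3 was at 12.0 TPM in shISG20 against 28.5 TPM in shNTC (-1.20) and TGFB1 at 12.2 TPM in shISG20 against 23.9 TPM in shNTC (-0.93). In all, 6 of 30 genes of the pathway fell and 3 rose, against 7.1% and 5.54% of all rows. There were 3 lower without shISG20 replicate 1, 2 lower without shNTC replicate 3 and 1 higher without shISG20 replicate 2. The activin receptor ACVR2A rose (17.4 TPM in shISG20 against 11.1 TPM in shNTC, 0.60), as did the activin subunit INHBA (145 TPM in shISG20 against 83.7 TPM in shNTC, 0.78), a call that ended without shISG20 replicate 2 (0.75).

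Of 22 factors that act on blood vessels 9 fell and 2 rose (median -0.37), against 7.1% and 5.54% of all rows. With any 1 library left out, 9 or 10 fell. ANGPT1, the angiopoietin that activates the endothelial receptor TIE2, stood at 5.19, 3.74 and 4.87 TPM in the shISG20 libraries, against 25.4, 24.6 and 23.4 TPM in the shNTC libraries, with no knockdown library near a control (log2 fold change -2.19, SE 0.171, limma adjusted p = 3.22e-05). NRP1 and NRP2, coreceptors of VEGF and of class 3 semaphorins, were at 3.47 TPM in shISG20 against 10.5 TPM in shNTC (-1.39) and 38.4 TPM in shISG20 against 65.6 TPM in shNTC (-0.76). Their ligands SEMA3A (110.4 TPM in shISG20 against 181 TPM in shNTC, -0.71) and SEMA3F (24.8 TPM in shISG20 against 48.3 TPM in shNTC, -0.93) fell as well. VEGFA stood at 70.6, 66.9 and 69.9 TPM in the shISG20 libraries, against 86.6, 88.2 and 90.0 TPM in the shNTC libraries, a smaller but separated difference (log2 fold change -0.35, SE 0.0468, limma adjusted p = 0.000947). DDAH2, which removes inhibitors of nitric oxide synthesis, was at 6.27 TPM in shISG20 against 20.96 TPM in shNTC (-1.60), and the prostaglandin synthases PTGS1 and PTGS2 fell by 0.63 and 0.45. The vasoactive peptides adrenomedullin (ADM, 6.04 TPM in shISG20 against 1.81 TPM in shNTC, 1.27) and endothelin (EDN1, 6.61 TPM in shISG20 against 2.09 TPM in shNTC, 1.41) rose, and the EDN1 call ended without shISG20 replicate 1 or 3 (1.39 each).

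Wnt, Notch and guidance genes were called in 1 direction, with 8 of 32 lower and none higher (median -0.15), against 7.1% and 5.54% of all rows. Without shISG20 replicate 1 or 2 or shNTC replicate 3, 5 were lower. The ligand WNT10A stood at 29.3, 28.2 and 38.9 TPM in the shISG20 libraries, against 79.8, 87.9 and 78.6 TPM in the shNTC libraries, again with no overlap (log2 fold change -1.34, SE 0.141, limma adjusted p = 0.000201). WNT7B was at 11.7 TPM in shISG20 against 19.5 TPM in shNTC (-0.70), NOTCH1 at 5.12 TPM in shISG20 against 9.08 TPM in shNTC (-0.72) and PLXND1, a semaphorin receptor, at 12.0 TPM in shISG20 against 16.7 TPM in shNTC (-0.45). Beta-catenin (CTNNB1, 100.3 TPM in shISG20 against 103 TPM in shNTC) and the coreceptor LRP6 were not called.

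The circadian clock is a loop in which CLOCK and BMAL1 activate their own repressors. NR1D1 (REV-ERB alpha), a nuclear receptor that represses BMAL1, stood at 110.2, 135 and 123 TPM in the shISG20 libraries, against 25.3, 28.6 and 28.6 TPM in the shNTC libraries. Its lowest knockdown library was several times the highest control library (log2 fold change 2.12, SE 0.106, limma adjusted p = 2.43e-06). BHLHE41, another repressor of the loop, stood at 11.4, 14.2 and 9.41 TPM in the shISG20 libraries, against 4.86, 4.39 and 3.67 TPM in the shNTC libraries (log2 fold change 1.25, SE 0.141, limma adjusted p = 0.000312), and TEF, an output factor, at 36.9 TPM in shISG20 against 21.7 TPM in shNTC (0.75). The nuclear receptor RORA, which opposes NR1D1 at its sites, was at 3.72 TPM in shISG20 against 6.43 TPM in shNTC (-0.66). The core genes ARNTL (BMAL1, 32.5 TPM in shISG20 against 35.9 TPM in shNTC), CRY1 (25.4 TPM in shISG20 against 27.6 TPM in shNTC) and PER1 (23.8 TPM in shISG20 against 21.3 TPM in shNTC) were not called. In all 3 of 16 rose and 2 fell (median 0.14), against 5.54% and 7.1% of all rows. The E-box CACGTG, bound by CLOCK and BMAL1 and searched on both strands in the same windows, was in the promoters of BHLHE41, TEF, CRY1 and PER1, 4 of 12 with a window, and in 8.09% of all genes with a window. Of these 4, BHLHE41 and TEF rose and CRY1 and PER1 were not called, and the window of NR1D1 held no E-box.

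For messages of a cell cycle phase, more cells in that phase and more RNA per cell cannot be told apart in bulk RNA. Of 23 genes of origin licensing and the replicative helicase 4 rose and none fell (median 0.34), against 5.54% and 7.1% of all rows. MCM5 (64.9 TPM in shISG20 against 40.1 TPM in shNTC, 0.68) and MCM3 (54.9 TPM in shISG20 against 35.0 TPM in shNTC, 0.63) of the helicase and the helicase activator CDC45 (28.1 TPM in shISG20 against 15.8 TPM in shNTC, 0.78) were among them. At the fork, 11 of 25 rose and 2 fell (median 0.52), with 7 higher without shISG20 replicate 1 or 3, and 1 lower without any 1 library other than shISG20 replicate 2. PCNA, the sliding clamp, stood at 210.5, 200.5 and 189.8 TPM in the shISG20 libraries, against 117, 107 and 98.8 TPM in the shNTC libraries, and every knockdown library was above every control (log2 fold change 0.89, SE 0.0749, limma adjusted p = 5.17e-05). The polymerase subunits POLA1 (46.6 TPM in shISG20 against 26.4 TPM in shNTC, 0.80), PRIM1 (0.70), POLD1 (0.93) and POLD2 (0.53) and the ligase LIG1 (0.58) rose, while the histone chaperone ASF1A fell (130.0 TPM in shISG20 against 177 TPM in shNTC, -0.44) and its paralogue ASF1B rose (25.7 TPM in shISG20 against 14.2 TPM in shNTC, 0.81, and 0.75 and not called without shNTC replicate 3).

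Among 26 nucleotide synthesis genes 6 rose and none fell. RRM2, the limiting subunit of ribonucleotide reductase, stood at 21.9, 20.6 and 20.9 TPM in the shISG20 libraries, against 10.1, 8.51 and 9.60 TPM in the shNTC libraries (log2 fold change 1.09, SE 0.115, limma adjusted p = 0.000203). CAD, which starts pyrimidine synthesis (145 TPM in shISG20 against 93.1 TPM in shNTC, 0.63), CTPS1 (0.50), IMPDH1 (0.65) and RRM1 (0.48) rose with it. Of 26 cyclins, kinases, inhibitors and E2F factors 3 rose and 1 fell, against 5.54% and 7.1% of all rows, and without shNTC replicate 3 the counts were 2 and 2. Those that rose included cyclin D1 (CCND1, 124 TPM in shISG20 against 92.0 TPM in shNTC, 0.43) and the transcription factor MYBL2 (0.68), and the inhibitor CDKN2C fell (66.0 TPM in shISG20 against 113 TPM in shNTC, -0.77). In mitosis 9 of 32 rose and none fell (median 0.27), and 4 or 5 rose with any 1 library left out. CCNB1 (30.1 TPM in shISG20 against 19.9 TPM in shNTC, 0.58), the condensin subunit NCAPG (0.83), the topoisomerase TOP2A (0.48) and the checkpoint target CDC20 (174 TPM in shISG20 against 129.6 TPM in shNTC, 0.42) kept their calls under every alternative tried. Targets of p53 were called higher in 6 of 20 cases and lower in 1, and lower in none without any 1 library other than shISG20 replicate 3. PLK2 (635 TPM in shISG20 against 476 TPM in shNTC, 0.41), GADD45A (0.31), CCNG1 (0.45) and the antiproliferative BTG2 (25.9 TPM in shISG20 against 12.0 TPM in shNTC, 1.04) were among those that rose.

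**Figure D4:**
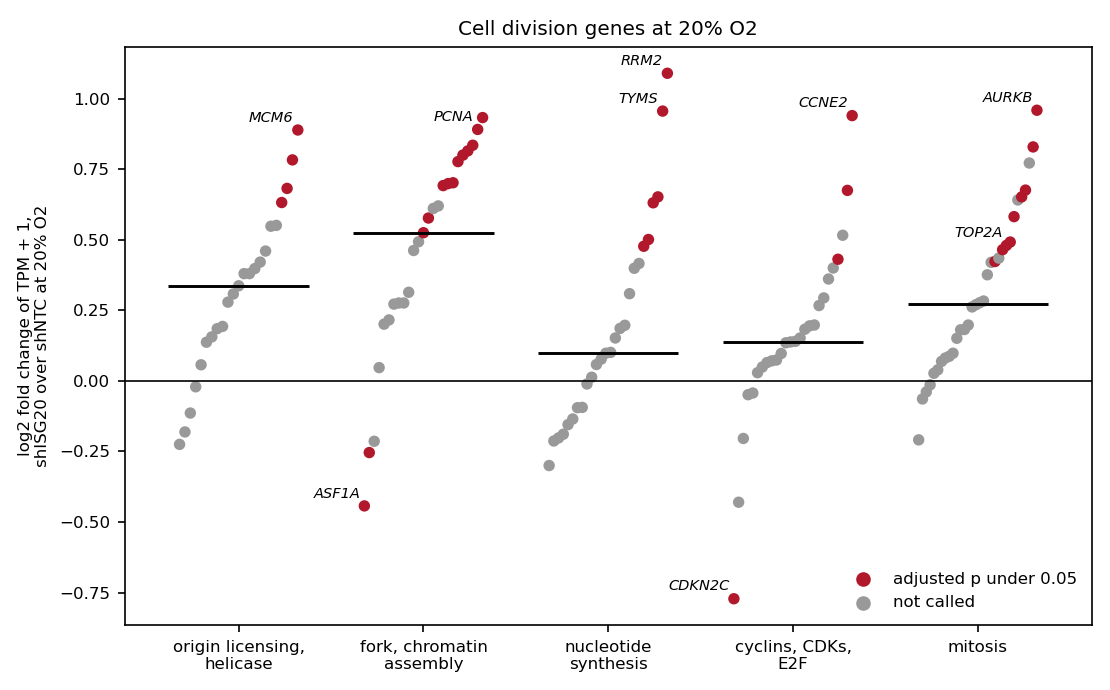
Log2 fold change of TPM + 1, shISG20 over shNTC at 20% O2, of the tested members of 5 cell division lists, with a bar at each list's median and called members in red. The medians run between 0.10 for nucleotide synthesis and 0.52 for the replication fork, and CDKN2C lies lowest at -0.77.

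Genes of glycolysis fell in 6 of 21 cases and rose in 3, against 7.1% and 5.54% of all rows. GAPDH stood at 1451, 1436 and 1452 TPM in the shISG20 libraries, against 2165, 2168 and 2199 TPM in the shNTC libraries (log2 fold change -0.59, SE 0.0305, limma adjusted p = 2.63e-06), and 48 of its pseudogene copies were tested, of which 29 fell and none rose. Reads may be split among these copies, which summed to 5030.3 TPM in shISG20 and 7509.5 TPM in shNTC cells, so the level of GAPDH is uncertain while the copies moved the same way. TPI1 (123 TPM in shISG20 against 172 TPM in shNTC, -0.48), ENO1 (328 TPM in shISG20 against 411 TPM in shNTC, -0.32) and ALDOC (-0.69) fell, and the pyruvate kinase PKM rose (1138 TPM in shISG20 against 952 TPM in shNTC, 0.26). The glucose transporter SLC2A1 (43.5 TPM in shISG20 against 46.3 TPM in shNTC) and LDHA (32.2 TPM in shISG20 against 31.3 TPM in shNTC) were not called.

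The citric acid cycle split, with 5 of 29 genes higher and 5 lower, against 5.54% and 7.1% of all rows. Without shISG20 replicate 2 or shNTC replicate 1 or 3, 3 were lower. IDH2, the mitochondrial NADP-dependent isocitrate dehydrogenase, stood at 92.1, 89.8 and 83.9 TPM in the shISG20 libraries, against 208, 170.3 and 196 TPM in the shNTC libraries, with no overlap (log2 fold change -1.10, SE 0.0776, limma adjusted p = 1.76e-05). SDHA, a subunit of succinate dehydrogenase, was at 1.71 TPM in shISG20 against 5.06 TPM in shNTC (-1.16) and SUCLA2, of succinyl-CoA synthetase, at 10.4 TPM in shISG20 against 16.3 TPM in shNTC (-0.60). Among the members that rose were PDHB (65.9 TPM in shISG20 against 42.8 TPM in shNTC, 0.61) and DLD (0.26) of pyruvate dehydrogenase and malate dehydrogenase MDH2 (192 TPM in shISG20 against 159 TPM in shNTC, 0.27). In the respiratory chain 5 of 36 nuclear genes rose and none fell (median 0.17), among them COX5B (0.36) of complex IV, NDUFV1 (0.30) of complex I and ATP5MC3 (0.24) of the ATP synthase. Of 41 mitochondrial ribosomal proteins 2 rose, MRPL13 and MRPS26, against 5.54% of all rows, and in 4 of the 6 leave-outs none did.

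Lipid synthesis genes gave 6 lower and 4 higher of 31 (median -0.27), and 2 higher without any 1 library other than shNTC replicate 3. The desaturase SCD (15.7 TPM in shISG20 against 27.8 TPM in shNTC, -0.78), the acyl-CoA synthetase ACSL3 (-0.58) and HMGCS1 of cholesterol synthesis (13.9 TPM in shISG20 against 23.0 TPM in shNTC, -0.69) fell, and the acetyl-CoA synthetase ACSS2 rose (0.45). In lipid storage and breakdown 2 of 21 rose and 1 fell, against 5.54% and 7.1% of all rows. In this list 1 rose without shISG20 replicate 2 or 3 or shNTC replicate 2 or 3. DGAT2, which makes triglycerides, was at 5.50 TPM in shISG20 against 1.60 TPM in shNTC (1.32, not called with a pseudocount of 0.1), and the lipase cofactor ABHD5 at 5.83 TPM in shISG20 against 10.4 TPM in shNTC (-0.75). Targets of NRF2, which guards against oxidants, were called in both directions, 7 higher and 5 lower of 34, and 3 lower without shISG20 replicate 2 or 3 or shNTC replicate 1. Ferritin light chain (FTL) stood at 7469, 7291 and 7411 TPM in the shISG20 libraries, against 5299, 5337 and 5631 TPM in the shNTC libraries (log2 fold change 0.45, SE 0.0377, limma adjusted p = 5.17e-05), and 4 of its 9 tested copies rose. The haem oxygenase HMOX1 rose (31.8 TPM in shISG20 against 21.2 TPM in shNTC, 0.56) and the aldose reductase AKR1B1 too (0.72), while GCLM of glutathione synthesis (33.0 TPM in shISG20 against 51.6 TPM in shNTC, -0.63) and the transketolase TKT (-0.44) fell.

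Of 20 aminoacyl-tRNA synthetases 7 rose and none fell (4 without shISG20 replicate 1 or shNTC replicate 1), among them YARS1 (157 TPM in shISG20 against 123 TPM in shNTC, 0.35) and WARS1 (88.2 TPM in shISG20 against 67.2 TPM in shNTC, 0.39). Of 42 proteasome and antigen presentation genes 12 rose and 2 fell, with 6 or 7 higher without any 1 library other than shNTC replicate 3, and 1 lower without shISG20 replicate 3 or shNTC replicate 3. The subunits PSMD2 (409 TPM in shISG20 against 337 TPM in shNTC, 0.28), PSMD8 (0.43) and PSMC2 (0.29) rose, and PSME1 of the proteasome activator fell (78.4 TPM in shISG20 against 114 TPM in shNTC, -0.54). Lysosome and autophagy genes gave 6 higher and 2 lower of 39, against 5.54% and 7.1% of all rows, and 4 or 5 higher with any 1 library left out. The alpha-galactosidase GLA was at 11.7 TPM in shISG20 against 4.94 TPM in shNTC (1.10).

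ISG20 is itself interferon-induced. Of 24 interferon-stimulated and sensing genes 1 was called, against 12.6% of all rows and 15.9% of rows that match a mouse gene. This was RSAD2, which rose (7.42 TPM in shISG20 against 3.57 TPM in shNTC, 0.85), and that call ended without shISG20 replicate 2 or 3 or shNTC replicate 1 or 3 (0.69 to 0.83). Of 14 chemokines, cytokines and receptors 1 rose and 2 fell, MIF, ACKR3 and CLCF1, against 5.54% and 7.1% of all rows. MIF was not called without shISG20 replicate 2 or 3, ACKR3 without shISG20 replicate 2 or shNTC replicate 1 or 2, and CLCF1 without any 1 library other than shNTC replicate 2. Of 45 RNA decay genes, ISG20 included, 3 fell and 1 rose, against 7.1% and 5.54% of all rows. CNOT2, of the deadenylase complex, stood at 43.6, 45.2 and 42.8 TPM in the shISG20 libraries, against 75.4, 72.7 and 73.7 TPM in the shNTC libraries (log2 fold change -0.74, SE 0.0616, limma adjusted p = 5.06e-05), and the calls of DCP1A and CNOT3 ended in all 6 leave-outs.

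Subunits of the hypoxia-inducible factor differed in direction at 20% O2. HIF1A was at 85.1 ± 4.24 TPM in shISG20 cells and 112 ± 4.12 TPM in shNTC cells (SD, n = 3 each; -0.40, limma adjusted p = 0.00355). ARNT, its partner, was at 51.3 ± 1.28 TPM in shISG20 cells and 43.4 ± 0.912 TPM in shNTC cells (0.24, limma adjusted p = 0.0496), a call that ended in all 6 leave-outs. EPAS1 had 5 reads in shISG20 and 19 reads in shNTC cells and was not tested. Of 26 HIF subunits, sensors and targets 5 rose and 7 fell, against 5.54% and 7.1% of all rows. There were 2 higher and 4 lower without shISG20 replicate 2, 2 higher without shNTC replicate 2, and 3 higher without shISG20 replicate 3 or shNTC replicate 3.

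The shISG20 and shNTC libraries at 1% O2 are separate from those at 20% O2. There, 614 of the same rows were higher and 1426 lower in shISG20 cells (4.53% and 10.5%), around a median of -0.07. Of the 751 rows higher at 20% O2, 153 (20.4%) were also higher at 1% O2 and 77 (10.3%) were lower. Of the 962 lower rows, 324 (33.7%) were also lower and 38 (3.95%) were higher. The difference between both effects was called in 1016 rows, 7.5% of those tested, and these held 234 of the 751 and 277 of the 962. The change that chose the 751 and the 962 rows is part of the difference, so these counts cannot be set against the 7.5%. Without shISG20 replicate 2 or 3 the difference was called in 616 and 665 rows, and with voom in 1908.

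Among the 38 lists, collagen chains had the largest share of called differences, 8 of 10, and at 1% O2 1 collagen rose and 2 fell. COL1A1 had a log2 fold change of -1.42 at 20% O2 and 0.17 at 1% O2, with a difference of -1.59 (SE 0.174, limma adjusted p = 0.00097). COL3A1 (-1.90 and 0.19) and FN1 (-0.81 and -0.14) differed likewise. COL6A2 was lower at both levels (-2.05 and -1.12), and its difference was not called. PCNA was higher at 20% O2 and not called at 1% O2 (0.89 and -0.06, with a difference of 0.95, SE 0.106, limma adjusted p = 0.00103), whereas CCNB1 was higher at both (0.58 and 0.57). In the mitosis list 16 of 32 rose at 1% O2.

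ISG20 itself had a log2 fold change of -1.50 at 20% O2 and -2.57 at 1% O2. The difference of 1.07 (limma adjusted p = 0.0162) was called with the pseudocount of 1, which shrinks changes of low genes, and was not called with a pseudocount of 0.1 (0.66) or with voom (0.46).

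Some genes moved in opposite directions. HMOX1 was 0.56 at 20% O2 and -1.03 at 1% O2, ATF4 0.25 and -0.35, ITGB7 0.78 and -0.58, AXL -0.69 and 0.40 and WARS1 0.39 and -0.60, each called at both levels with a called difference. The difference was not called for CCN1 (0.98 and 1.05), CCN2 (0.75 and 0.72), CFL2 (0.94 and 0.97) and BZW1 (-1.01 and -1.18). HSPA5 was lower at both levels (-2.21 and -1.82), by more at 20% O2 (difference -0.40, SE 0.0833, limma adjusted p = 0.0179), and SDF2L1 and DNAJB9 were higher at 20% O2 and not called at 1% O2 (differences 1.61, SE 0.255, limma adjusted p = 0.00523, and 1.13, SE 0.155, limma adjusted p = 0.00277). Each of the called differences named here was also called when any 1 of the 6 libraries at 20% O2 was left out, and the HSPA5 difference was not called without a variance trend (adjusted p = 0.0673 by limma).

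**Figure D5:**
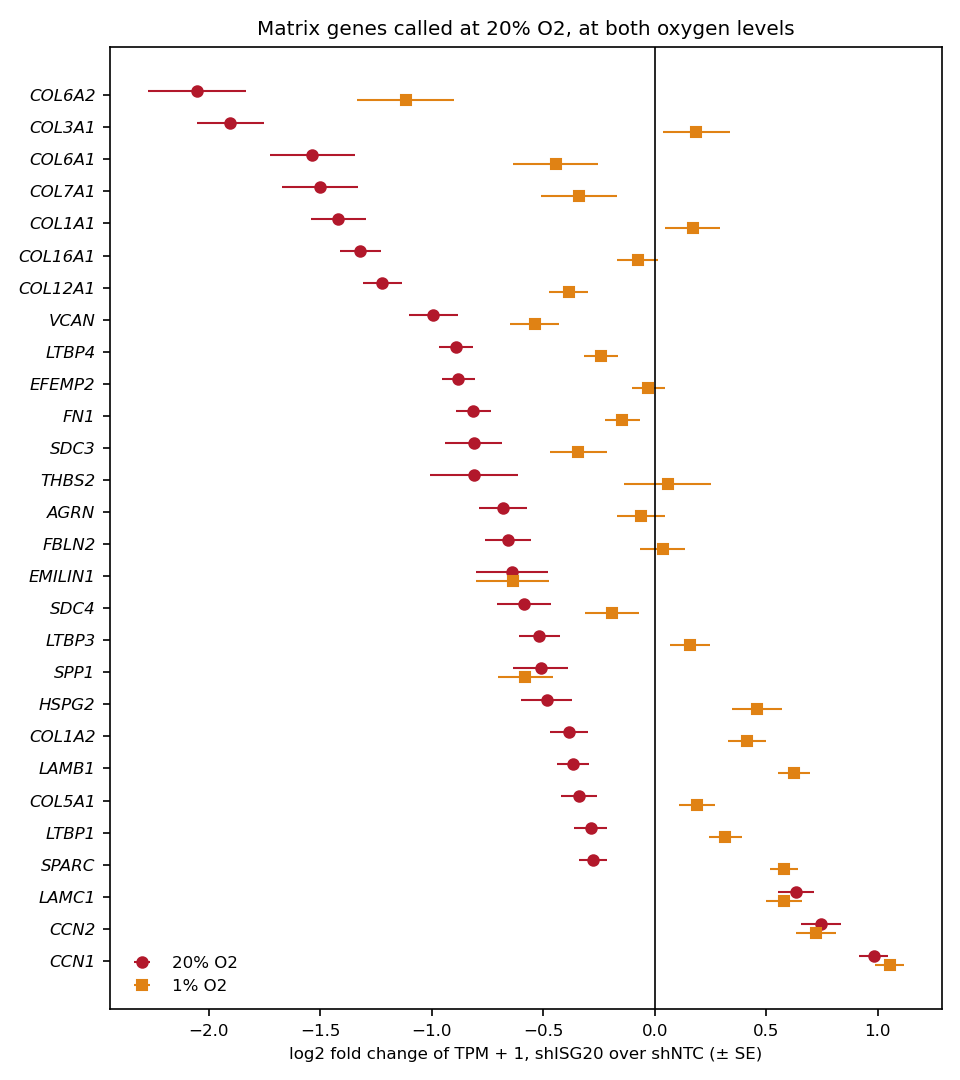
Log2 fold change of TPM + 1, shISG20 over shNTC, at 20% O2 (circles) and 1% O2 (squares) with limma's standard error, for collagen, basement membrane and glycoprotein genes called at 20% O2. COL3A1 and COL1A1 lie at -1.90 and -1.42 at 20% O2 and at 0.19 and 0.17 at 1% O2, while CCN1 and CCN2 lie above 0 at both.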

How the data were processed

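The deposited values are TPM per gene (reads scaled by gene length and to a common total per library), made by the authors. FastQC, STAR, featureCounts and the human build GRCh38 are named in the submitters' processing notes, with versions not given in the sources used here, and per the labels RNA came from TRIzol extraction with DNase treatment and was sequenced on an Illumina NovaSeq. Mouse names were matched to the human gene symbols through GRCm38 tables. At 20% O2, pseudogene rows held 34.1% to 34.6% of TPM and 9.73% to 10.1% of reads. Rows with the symbol of a mouse gene, synonyms left out, held 45.8% to 46.5% of TPM and 82.4% to 82.9% of reads. Every TPM value was a whole multiple of its row's step (100% of 189206 values within 1e-06), so reads per row were recovered up to a common divisor, with libraries of 3251090 to 5201799 reads.

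Levels as log2(TPM + 1) of all 12 libraries were fitted together in limma 3.58.1 (R 4.3.3) with 4 group means and empirical Bayes with a variance trend, for rows with at least 1 TPM in 3 of the 6 libraries at 20% O2. The contrasts were shISG20 over shNTC at 20% O2, the same at 1% O2, and their difference, with Benjamini-Hochberg adjustment over 13545 rows and a threshold of 0.05. The fit was also run on simulated reads with the same set spread for every row, which does not measure its error rate in these data. With 3 libraries against 3 an exact permutation test of 1 gene cannot go below a two-sided p of 0.1. Fold changes on this scale understate changes of genes at low levels. Tables and figures were made in Python 3.11.15 with numpy 2.4.6, pandas 2.3.3 and matplotlib 3.10.9. Promoter sequences are from RefSeq, GRCm38.p6.

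The comparison, the 38 gene lists, the 4 marker lists and the naming rule were chosen with earlier results of these data known. The rule named ISG20, HIF1A, EPAS1 and ARNT, the 20 highest and 20 lowest fold changes, the 10 smallest p-values and the 10 largest TPM differences among called mouse-named rows with no overlap and at least 5 TPM, up to 5 called members per list or, with none called, the 2 most abundant, and all called ER folding genes. A few of these are not reported here. Named outside the rule, after their values were seen, were ACTA2, ACTB, ACTG1, ARNTL, ASF1B, ATF6, CALR, CANX, CDH1, COL1A2, COL8A1, CRY1, CTNNB1, DDIT3, DNAJC3, DUSP4, EGR2, EGR3, EIF2AK3, EPCAM, ERN1, ERO1B, FBLN2, GSTA2, JUN, KRT19, KRT8, LDHA, LRP6, LTBP3, MMP14, MYC, NRP1, PDGFRB, PDIA4, PER1, POLD1, POLD2, PTGS1, PTGS2, SDC3, SDC4, SEMA3F, SERPINH1, SLC2A1, SPRY2, SUCLA2, SYVN1 and VIM. Alternatives were pseudocounts of 0.1 and 5, filters of none and 5 TPM, the 6 libraries at 20% O2 only, quantile normalization, median-of-ratios size factors, mouse-named rows only, no variance trend, voom on recovered reads, a replicate block, and each library left out.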

Additional observations from a re-analysis of the deposited data

Results flagged for a closer look

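For 108 genes named in the text and called at 20% O2, the effect of the knockdown (shISG20 against shNTC) also differed between the oxygen levels, by limma's interaction term at an adjusted p under 0.05. Values are the log2 fold change at 20% O2 minus that at 1% O2, so that a gene which fell more, or rose less, at 20% O2 has a negative value. The genes were chosen by their call at 20% O2, and that change is part of the difference. The sign of the difference therefore tends to follow the direction at 20% O2. ISG20 itself had a difference of 1.07, since its log2 fold change of TPM + 1 was -1.50 at 20% O2 and -2.57 at 1% O2, and this difference was not called with a pseudocount of 0.1 (0.66) or with voom (0.46).

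Matrix genes in this set had negative differences. For collagen chains they were -2.09 for COL3A1, -1.59 for COL1A1, -1.25 for COL16A1, -1.16 for COL7A1, -1.09 for COL6A1, -0.84 for COL12A1 and -0.80 for COL1A2. Among matrix glycoproteins and laminin and proteoglycan genes they were -0.99 for LAMB1, -0.94 for HSPG2, -0.85 for EFEMP2, -0.69 for FBLN2, -0.68 for LTBP3, -0.67 for FN1, -0.65 for LTBP4 and -0.62 for AGRN, and among collagen-modifying enzymes and inhibitors -1.13 for PCOLCE, -0.84 for P4HA1, -0.62 for TIMP2, -0.55 for COLGALT1 and -0.53 for PLOD2. COL1A2, LAMB1, HSPG2 and P4HA1 were called lower at 20% O2 and higher at 1% O2.

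Most vessel, guidance, growth-factor and adhesion genes in this set also had negative differences: -1.74 for ANGPT1, -1.31 for NRP1, -1.20 for DDAH2, -1.07 for SEMA3F, -0.71 for NRP2, -0.58 for SEMA3A, -0.48 for PTGS2 and -0.47 for PLXND1 among vessel and guidance genes, -1.52 for NAB2, -1.34 for EGR2, -1.18 for WNT10A, -1.08 for TGFB1, -0.87 for DUSP6 and -0.47 for JUNB among signalling genes, and -1.09 for AXL, -1.02 for TWIST1, -0.93 for ITGA3, -0.91 for S100A4, -0.59 for CAVIN1, -0.48 for TMSB10 and -0.44 for ITGB1 among surface, mesenchymal and cytoskeletal genes. Positive differences were 1.41 for ADM, 0.99 for DUSP1, 0.90 for DUSP4, 0.72 for JUN, 0.64 for ACVR2A, 1.36 for ITGB7 and 0.47 for DSP.

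In ER folding and stress genes the differences were positive, with 1.61 for SDF2L1, 1.13 for DNAJB9, 0.61 for ERO1A, 0.60 for ATF4, 0.47 for MANF, 0.45 for ERP29, 0.40 for DERL2 and 0.35 for HYOU1, apart from -0.40 for HSPA5. With median-of-ratios size factors the differences of MANF, ERP29, DERL2 and HYOU1 were not called. Heat shock genes gave 0.85 for CRYAB, 0.40 for HSPA9 and -0.42 for HSPA8. In clock genes the difference was 1.12 for NR1D1, 1.03 for BHLHE41 and -0.68 for RORA. Cell division and DNA replication genes gave 0.95 for PCNA, 0.93 for MCM3, 0.81 for MCM5, 0.50 for PLK2, -0.84 for CDKN2C and -0.49 for CTPS1; CTPS1 rose at both levels and by more at 1% O2.

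Metabolic genes were divided. Positive values were 1.59 for HMOX1, 1.56 for DGAT2, 1.51 for GSTA2, 1.44 for ACOT13, 1.42 for GLA, 0.72 for GCLM, 0.66 for AKR1B1, 0.58 for PDHB, 0.54 for MDH2, 0.40 for COX5B, 0.36 for NDUFV1, 0.32 for FTL, 0.32 for DLD and 0.18 for PKM, and negative ones -1.04 for HMGCS1, -0.91 for ACSL3, -0.72 for ALDOC, -0.51 for TKT, -0.25 for GAPDH and -0.19 for ENO1. Protein synthesis and proteasome genes gave 0.99 for WARS1, 0.70 for PSMC2, 0.35 for YARS1, 0.31 for PSMD2, -0.17 for EEF2, -0.24 for PABPC1, -0.11 for RPS12 and -0.41 for PSME1. The remaining values were -0.83 for WIPI1, -2.22 for GDPD2, -1.63 for CIB2, -0.59 for YPEL3, 0.73 for IGF2BP2, 0.61 for H2AW and 1.06 for MT-RNR1. Fitted values of 2.52 for PHLDA2, 3.21 for H2AC8 and -5.38 for MIRLET7I rest on few reads and are no bounds.

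Of these 108 differences 86 were called when any 1 of the 6 libraries at 20% O2 was left out. The others, ACVR2A, ADM, AGRN, AKR1B1, COL6A1, COLGALT1, DERL2, DSP, EGR2, ENO1, ERP29, GSTA2, HYOU1, MIRLET7I, NDUFV1, NRP1, PKM, PLOD2, PLXND1, PSME1, RORA and RPS12, were not called in 2 to 6 of the 6 leave-outs and kept their direction in each. Over the other alternatives 36 lost the call in at least 1. Where the call ended, the ANGPT1 difference was -0.79 with a pseudocount of 0.1 and -0.31 with voom (adjusted p = 0.502 and 0.835 by limma), and that of GDPD2 was -0.58 and -0.91 (adjusted p = 0.417 and 0.574 by limma). The EGR2 difference was -2.14 and -2.40 in the same alternatives, and with a pseudocount of 0.1 those of DGAT2, GSTA2 and H2AC8 were 2.70, 2.96 and 5.71. With a pseudocount of 5 GSTA2 was at 0.56 and MIRLET7I at -2.79. With size factors the calls of ACVR2A, COX5B, DERL2, DLD, ERP29, FTL, GSTA2, HYOU1, MANF, NDUFV1 and PKM ended. All of these were positive differences that became smaller, with HYOU1 at 0.26 and PKM at 0.09. Under quantile normalization the PABPC1 difference was -0.04 and that of RPS12 was 0.00. RPS12 was the exception, 1 of the 108, that did not keep its direction over these alternatives.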

How the results depend on the processing

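Between 1481 and 2532 rows were called in shISG20 against shNTC cells over 11 alternatives that kept all 6 libraries at 20% O2, against 1713 as reported. Leaving out 1 library gave 1125 to 1193 rows in all, 452 to 524 higher, 653 to 720 lower, and 616 to 764 with a called difference between oxygen levels. With voom on the recovered reads, 1276 rows were higher and 1908 had a called difference between oxygen levels, against 751 and 1016, and the cause was not tested. ISG20 was lower in every alternative, with log2 fold changes of -3.32 (voom) to -0.51 (pseudocount of 5), and was not tested with the 5 TPM filter. RPS12 had a log2 fold change of 0.00 under quantile normalization against -0.16, and the cause was not tested. Of the 205 called genes taken by the naming rule, 205 kept direction and call with median-of-ratios size factors, 203 with voom, 199 with a pseudocount of 0.1, and 182 to 189 with 1 library left out. Replicate numbers did not pair the samples: the deviations of same-numbered shISG20 and shNTC libraries correlated at -9e-04, -0.0437 and 0.0201. A fit with the number as a replicate block called 1481 rows at 20% O2, 652 higher and 829 lower, and 760 differences between oxygen levels, and left ISG20 at -1.50. The difference between oxygen levels was not computed from the 6 libraries at 20% O2 alone, which hold no 1% O2 sample. The depth of 3251090 to 5201799 reads and the alignment to another species limit what genes at few TPM can show.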

Other observations

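Genes of translation and chromatin outside the gene groups in the report differed between the cells. YBX1, an RNA-binding protein that packages messages, stood at 4034, 4363 and 4351 TPM in the shISG20 libraries, against 3028, 3257 and 3124 TPM in the shNTC libraries. Every shISG20 library lay above every shNTC library (log2 fold change 0.44, SE 0.0374, limma adjusted p = 5.68e-05), and its log2 fold change at 1% O2 was 0.42. H2AW, a histone H2A gene, stood at 1237, 1409 and 1369 TPM in the shISG20 libraries, against 810.4, 775 and 796 TPM in the shNTC libraries (0.75, SE 0.0586, limma adjusted p = 3.22e-05), again with no overlap. The elongation factor EEF2 fell (-0.22) and so did the ribosomal protein RPS12 (-0.16), although RPS12 was at 0.00 under quantile normalization. PABPC1, which binds the poly(A) tail, was higher by 0.11, a call that ended without shISG20 replicate 1 or without shNTC replicate 2 or 3 (0.10 each). With all libraries kept, the PABPC1 call also ended without a variance trend (adjusted p = 0.256 by limma), without a filter and under quantile normalization. Reads of RPS12 and YBX1 can be split with 17 and 10 processed copies in the table.

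Lysosome and autophagy genes were called in both directions. WIPI1, which acts on the forming autophagosome, and MAP1LC3A, which coats its membrane, fell by 0.51 and 0.31 on the log2 scale, while the lysosomal membrane protein LAMP1 rose (0.45). Of the membrane sheddases, ADAM17 rose (0.57) and ADAM9 fell (-0.49). These 5 calls held with any 1 library left out.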
